A study of Homo sapiens with 8 samples.

Results

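The levels of 8 long noncoding RNAs were followed across the 4 groups of the series: MALAT1, NEAT1, LINC00657 (now named NORAD), TUG1, KCNQ1OT1, OIP5-AS1, SNHG1 and GAS5. They were taken by name from the deposited tables, and all 8 of them were found among 56638 entries and passed the filter on low values that left 16067 genes for testing. The cells were A375, an established human malignant melanoma line. All groups received the plasmid pcDNA3.1(-) with Lipofectamine 2000 at 24 h after seeding and were harvested at 48 h after transfection, in DMEM with 10% FBS. The plasmid was empty (vector), carried full-length SLNCR1, itself a long noncoding RNA, carried only its conserved region (conserved), or carried SLNCR1 lacking that region (delta conserved), with 2 libraries in each group. All libraries come from transient transfection of 1 cell line. Nothing in the labels states that both libraries of a group were grown and transfected separately, so p-values here measure spread among these samples that could be purely technical. In bulk RNA, fewer cells that express an RNA and less of it per cell cannot be told apart.

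Long noncoding RNAs of this kind are known for roles of the RNA itself, which does not mean that none of them is translated. RefSeq lists TUG1 as protein-coding, while GENCODE lists it as a long noncoding RNA. MALAT1 sits in nuclear speckles, where splicing factors gather, and the long form of NEAT1 is the scaffold of paraspeckles, nuclear bodies that hold RNA-binding proteins and edited RNAs. NORAD is cytoplasmic and binds the Pumilio proteins, which repress mRNAs. KCNQ1OT1 is an imprinted antisense RNA that silences neighbouring genes on the same chromosome, TUG1 has been tied to repression of genes by chromatin complexes, and OIP5-AS1 (cyrano) carries a site that drives the decay of the microRNA miR-7. SNHG1 and GAS5 are host genes: small nucleolar RNAs are cut from their introns, and the spliced exons that remain are degraded by nonsense-mediated decay when translated. The libraries were poly(A)-selected, while the processed ends of MALAT1 and long NEAT1 are known to lack a poly(A) tail, so the counts of both describe what that selection retained.

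The sequence features by which several of these RNAs are known could be read from GENCODE release 29 transcripts (GRCh38), and are shown because they mark which stretch of each RNA carries its known role. In MALAT1 and long NEAT1 a pair of U-rich tracts and an A-rich tract fold into a triple helix that protects the end from decay. The lines below give 100 bases of MALAT1-202 (positions 8256 to 8355) that end with the A-rich tract, and the last 100 bases of NEAT1-202 (positions 22644 to 22743), 5′ to 3′, with the 3 motifs searched, the short and the long U-rich tract and the A-rich tract, in capitals (T stands for U).
MALAT1: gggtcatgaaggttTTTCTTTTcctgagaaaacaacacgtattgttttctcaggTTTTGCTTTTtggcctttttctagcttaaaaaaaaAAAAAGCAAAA
NEAT1: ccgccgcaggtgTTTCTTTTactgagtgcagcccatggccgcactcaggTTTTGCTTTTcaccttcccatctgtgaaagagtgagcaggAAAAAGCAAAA
Both windows hold each of the 3 motifs once on the RNA strand, in the same order. Over the last 100 bases of 203677 GENCODE transcripts, the short U-rich tract was found in 1.25%, the long one in 0.0859% and the A-rich tract in 0.0462%, counted on the RNA strand. These shares can be set beside the NEAT1 window only, since the MALAT1 window was placed by its A-rich tract and is not the transcript's end. The shares test nothing, as the 3 motifs searched are features for which both RNAs are already known. On the other strand the long U-rich tract was found 1 time in each window, since it lies within the complement of the A-rich tract, and the A-rich tract 1 time in the MALAT1 window.

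NORAD-201 is 5339 bases long and holds the Pumilio motif TGTANATA 15 times on its own strand and 1 time on the other. The first 4 of these elements are shown with 30 bases each, the motif in capitals, at positions 750 to 779, 1129 to 1158, 1230 to 1259 and 1431 to 1460.
NORAD element 1: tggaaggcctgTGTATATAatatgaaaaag
NORAD element 2: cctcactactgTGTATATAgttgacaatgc
NORAD element 3: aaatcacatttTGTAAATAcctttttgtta
NORAD element 4: ttacttatctgTGTATATAgtgtacataaa
Of 8098 GENCODE transcripts at least as long, 35.8% held the motif at least once in their first 5339 bases, and 0.037% held it 15 times or more. The longest transcripts of the other 7 RNAs held it 9 times in KCNQ1OT1, 6 in NEAT1, 2 in TUG1 and 1 each in OIP5-AS1 and SNHG1, with none in MALAT1 and GAS5. Per kilobase that was 2.81 in NORAD and at most 0.361 in the others, against 0.0924 over all transcripts.

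OIP5-AS1 is shown beside miR-7-5p (RefSeq, GRCh38.p14), with bases 2 to 8 of the microRNA, its seed, in capitals, and the complement of the seed, GTCTTCC, in capitals in 30 bases of OIP5-AS1-201 (positions 2865 to 2894).
miR-7-5p: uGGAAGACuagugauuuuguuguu
OIP5-AS1: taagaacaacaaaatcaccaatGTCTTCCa
The 8829 bases of that transcript hold the seed complement 3 times and its reverse strand 0 times, and 4.9% of 1675 transcripts of that length or more hold it as often in the same span. At this site all 12 bases at the far end of the microRNA had a partner as well, against 4 of 12 and 6 of 12 at the other two. The 5′ ends of the longest annotated SNHG1 and GAS5 transcripts follow, with their longest run of C and T in capitals, since host genes of this class are known for such runs at their starts.
SNHG1: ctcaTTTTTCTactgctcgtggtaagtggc
GAS5: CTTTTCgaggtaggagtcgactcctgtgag
In GAS5 the run starts at base 1, but in SNHG1 at base 5, so not at the very start. A run of at least 7 bases within the first 30, as in SNHG1, was found in 15.3% of 206659 transcripts. One of at least 6, as in GAS5, was found in 25.2%. These matches describe letters only and show no activity in these cells.

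The libraries held between 8222868 and 12015394 assigned reads, most in vector, then conserved, SLNCR1 and delta conserved. Library a denotes the deeper of each pair and library b the shallower, since the files tie neither to a replicate number. Counting noise alone would give a chi-square per degree of freedom near 1 between the libraries of a group, and the values were 1.18 (conserved) to 4.2 (SLNCR1). SLNCR1 library b stood apart by transcript length. Its genes with at least 16 kb of exon had a median log2 level 0.24 below library a, while those under 2 kb were 0.13 above. LINC00511, whose GENCODE span contains the RefSeq gene of SLNCR1 (LINC00673), ranged from 621 to 628 normalized counts in vector and from 865 to 1155 in the 6 libraries with a construct. Of 9 melanoma markers all had reads. Their summed level, largely CSPG4 and SOX10, was 9353 and 10336 in vector, 9876 and 10413 with conserved, and 11129 to 11521 with SLNCR1 and delta conserved. Of the 7 tested, SOX10 rose with both of the latter and CSPG4 with delta conserved, and 4 of 7 had values above 0 in each. SOX10 and CSPG4 lie above 3000 normalized counts, where 21.7% of genes rose with SLNCR1 and 39.3% with delta conserved. MITF had a mean of 716 in vector, 605 with SLNCR1 (log2 difference -0.25, limma adjusted p = 0.0889) and 591 with delta conserved (-0.28, adjusted p = 0.0689). The pigment genes PMEL and MLANA were at 9.93 to 42.8 normalized counts, and TYR and DCT at 5.05 or less. Of 3 markers of dedifferentiated melanoma (AXL, NGFR and EGFR), EGFR passed as lower with SLNCR1 in limma (-0.35). It had 1422 and 1051 normalized counts there and 1570 and 1543 in vector. In the authors' deposited table its adjusted p was 0.986. None of these markers passed with conserved or delta conserved against vector. Of 12 markers of keratinocytes, fibroblasts, leukocytes and endothelium 11 had reads, and their summed level was 276 to 452 per library, largely the collagen gene COL1A1. The fibroblast collagen gene COL3A1 was at 2.0 to 4.42 in vector, SLNCR1 and conserved library b, but at 53.4 in conserved library a and 51.2 and 45.5 with delta conserved. The part of these marker differences in any result was not tested.

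Levels are given as reads divided by median-of-ratios size factors (normalized counts). The 8 RNAs together took 0.184% and 0.185% of the reads in vector, 0.213% and 0.205% with SLNCR1, 0.197% in both conserved libraries, and 0.209% and 0.219% with delta conserved. Per kilobase of annotated exon, MALAT1 was the highest, with 558 to 731 normalized counts per kb over the 8 libraries, followed by NORAD with 517 to 696 and GAS5 with 463 to 557. SNHG1 had 363 to 431, NEAT1 188 to 262, TUG1 112 to 137, OIP5-AS1 84.5 to 114 and KCNQ1OT1 1.64 to 3.06 per kb. The ranges of MALAT1 and NORAD overlapped, as did those of NORAD and GAS5 and of TUG1 and OIP5-AS1, and the other neighbours in this order did not overlap. This order and its overlaps turn on the length used, here the merged exons of all annotated transcripts. The longest single transcript is shorter for GAS5 (1698 against 3631 bases) and SNHG1 (2768 against 3756). The same holds for TUG1 (7469 against 10151) and OIP5-AS1 (8829 against 12673), so these 4 would have higher values by it. Over the 3524 bases of its longest short transcript NEAT1 would stand at 1215 to 1696 per kb, above every value given here. Over its full 22.8 kb it was the fifth.

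**Figure D1:**
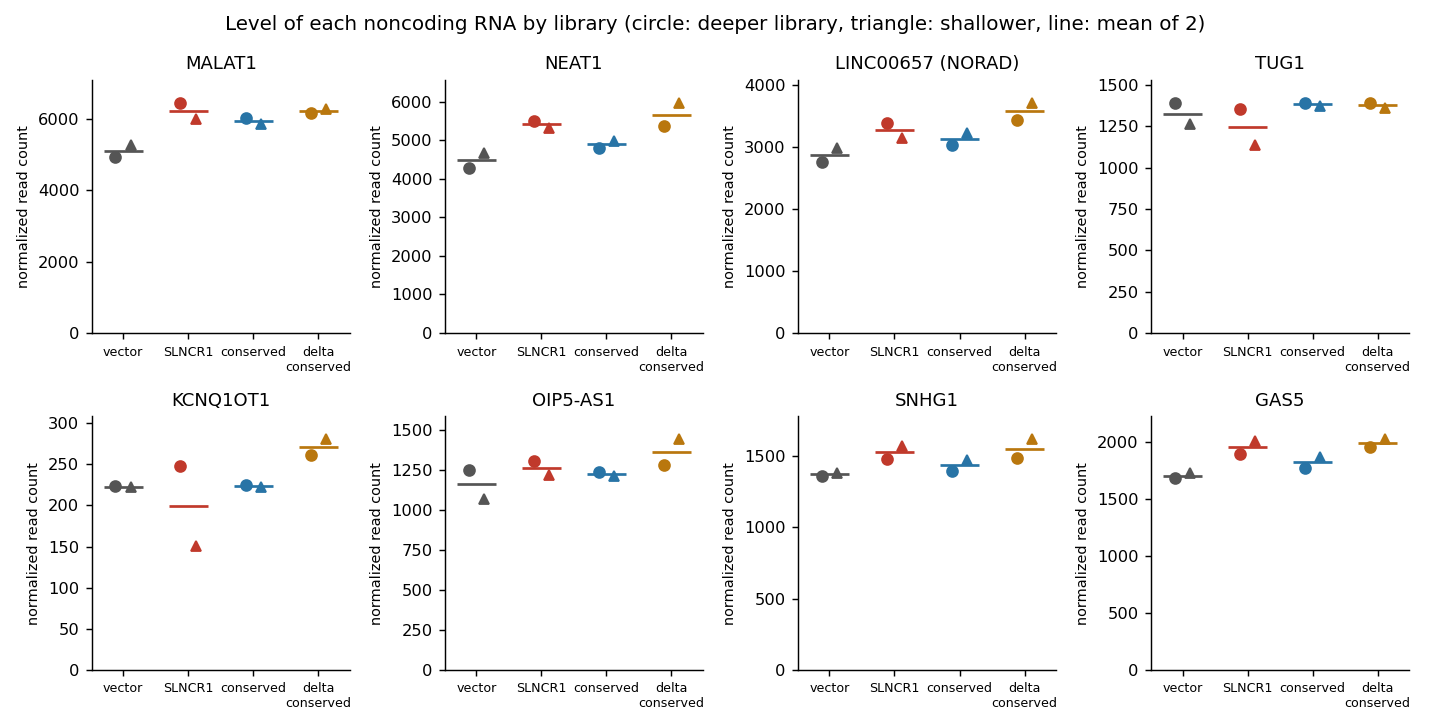
Normalized read count of each long noncoding RNA in every library, by group. Circles are the deeper library of a group, triangles the shallower one and lines the mean of 2. MALAT1, NEAT1, LINC00657 (NORAD), SNHG1 and GAS5 are lowest in both vector libraries, while KCNQ1OT1 has 1 SLNCR1 library at 150 and 1 at 248.

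MALAT1 and NEAT1, the nuclear body RNAs, were higher with full-length SLNCR1 and with delta conserved than with empty vector, by 1.21 to 1.27 times. NORAD and GAS5 were higher with delta conserved. With all libraries and all 4 groups in the fit, no member passed with the conserved region alone or between constructs, and TUG1, KCNQ1OT1, OIP5-AS1 and SNHG1 passed in no comparison. All differences are limma log2 differences of log2(normalized count + 1) with their standard error (SE), adjusted by Benjamini-Hochberg over 16067 genes, and a difference is said to have passed where the adjusted p was under 0.05.

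MALAT1 had 4922 and 5278 normalized counts in vector libraries a and b, 6452 and 5999 with SLNCR1, 6012 and 5859 with conserved, and 6170 and 6281 with delta conserved. All 6 libraries with a construct lay above both vector libraries. The group means were 5100 ± 251 for vector, 6226 ± 321 for SLNCR1, 5936 ± 108 for conserved and 6226 ± 78.9 for delta conserved (SD, n = 2). The log2 difference from vector was 0.29 ± 0.071 (SE) with SLNCR1 (limma, adjusted p = 0.0171) and 0.29 ± 0.071 with delta conserved (limma, adjusted p = 0.0148), a fold of 1.22 in both. With conserved it was 0.22, with an unadjusted p of 0.00615 and an adjusted p of 0.829 in limma, so it did not pass. In the authors' deposited table MALAT1 passed with delta conserved (adjusted p = 0.00261), and had adjusted p-values of 0.134 with SLNCR1 and 0.693 with conserved. Both limma calls were lost without vector library a (adjusted p = 0.136 for SLNCR1 and 0.117 for delta conserved), and the one for delta conserved also when either delta conserved library was left out (adjusted p = 0.0798 without a, 0.161 without b).

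NEAT1 had 4282 and 4674 normalized counts in vector, 5512 and 5319 with SLNCR1, 4810 and 4986 with conserved, and 5362 and 5976 with delta conserved. Vector was again below every construct library, and conserved lay between vector and the other constructs. Group means were 4478 ± 278, 5416 ± 137, 4898 ± 124 and 5669 ± 434 (SD, n = 2) in that order. NEAT1 rose by a log2 of 0.28 ± 0.074 (SE) with SLNCR1 (limma, adjusted p = 0.0272), a fold of 1.21, and by 0.34 ± 0.074 with delta conserved (limma, adjusted p = 0.00808), a fold of 1.27. The conserved difference of 0.13 had an adjusted p of 0.829 in limma. The authors' deposited table gave adjusted p-values of 0.196, 1 and 0.0643 for SLNCR1, conserved and delta conserved, so NEAT1 did not pass there. Both limma calls were lost without vector library a (adjusted p = 0.219 for SLNCR1 and 0.0935 for delta conserved), and that for delta conserved without delta conserved library b (adjusted p = 0.178). MALAT1 and NEAT1 are neighbours on chromosome 11 and are transcribed from the same strand.

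NORAD, listed as LINC00657, had 2760 and 2990 normalized counts in vector, 3388 and 3149 with SLNCR1, 3035 and 3222 with conserved, and 3434 and 3715 with delta conserved. Delta conserved held the highest values, above all other libraries. NORAD rose by a log2 of 0.31 ± 0.072 (SE) with delta conserved (limma, adjusted p = 0.0105), a fold of 1.24, and passed in the authors' deposited table as well (adjusted p = 0.0148). With SLNCR1 the difference was 0.19 (limma, adjusted p = 0.1) and with conserved 0.12 (adjusted p = 0.829). The delta conserved call was lost without vector library a (limma, adjusted p = 0.122) or delta conserved library b (adjusted p = 0.185).

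TUG1, a nuclear and cytoplasmic RNA from chromosome 22, had 1390 and 1261 normalized counts in vector, 1352 and 1136 with SLNCR1, 1391 and 1373 with conserved, and 1391 and 1363 with delta conserved. Vector overlapped with every construct group, and the lowest value was that of SLNCR1 library b. Its log2 differences from vector were -0.10, 0.06 and 0.06 for SLNCR1, conserved and delta conserved, with limma adjusted p-values of 0.47, 0.901 and 0.737. The 95% intervals reached from -0.26 to 0.07, from -0.11 to 0.23 and from -0.11 to 0.22.

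KCNQ1OT1, the antisense RNA of the KCNQ1 imprinting domain on chromosome 11, had 223 and 222 normalized counts in vector, 248 and 150 with SLNCR1, 224 and 222 with conserved, and 261 and 280 with delta conserved. Conserved and vector were nearly equal, both delta conserved libraries were the highest, and the SLNCR1 libraries lay on either side of vector. Its log2 difference from vector was -0.21 ± 0.16 (SE) with SLNCR1 (limma, adjusted p = 0.425), 0.0028 with conserved (adjusted p = 0.998) and 0.28 with delta conserved (adjusted p = 0.31). The SLNCR1 value turned on 1 library: it was 0.15 without SLNCR1 library b (limma, adjusted p = 0.561) and -0.56 without library a (adjusted p = 0.00119). KCNQ1, the gene it overlaps on the opposite strand, had 2.67 normalized counts or less in every library, so it could add few reads to these unstranded counts.

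OIP5-AS1 had 1253 and 1070 normalized counts in vector, 1309 and 1219 with SLNCR1, 1238 and 1212 with conserved, and 1283 and 1442 with delta conserved. Both delta conserved libraries were above vector, and the other constructs overlapped with it. The log2 difference was 0.23 ± 0.082 (SE) with delta conserved (limma, adjusted p = 0.08), 0.13 with SLNCR1 (adjusted p = 0.337) and 0.08 with conserved (adjusted p = 0.877). OIP5, the coding gene on the opposite strand from which it takes its name, had 166 to 218 normalized counts, and its reads cannot be separated from those of OIP5-AS1 where the genes overlap.

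SNHG1 had 1362 and 1381 normalized counts in vector, 1477 and 1575 with SLNCR1, 1399 and 1477 with conserved, and 1487 and 1618 with delta conserved. No library with a construct was as low as either vector library. The log2 differences were 0.15 with SLNCR1 (limma, adjusted p = 0.153), 0.07 with conserved (adjusted p = 0.879) and 0.18 with delta conserved (adjusted p = 0.119), and none of these passed.

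GAS5 had 1682 and 1728 normalized counts in vector, 1895 and 2011 with SLNCR1, 1775 and 1867 with conserved, and 1953 and 2023 with delta conserved. Vector was the lowest group, followed by conserved, and the SLNCR1 and delta conserved libraries overlapped. GAS5 rose by a log2 of 0.22 ± 0.066 (SE) with delta conserved (limma, adjusted p = 0.0395), a fold of 1.17, and had 0.20 with SLNCR1 (adjusted p = 0.0619) and 0.09 with conserved (adjusted p = 0.829). In the authors' deposited table its adjusted p with delta conserved was 0.142. This was the least stable of the calls: it was lost when any 1 of the 4 libraries of vector and delta conserved was left out (limma, adjusted p = 0.0685 to 0.288), and with TMM scaling (adjusted p = 0.109) or library totals (adjusted p = 0.0871). GAS5-AS1, on the opposite strand, had 10.7 to 21.5 normalized counts.

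**Figure D2:**
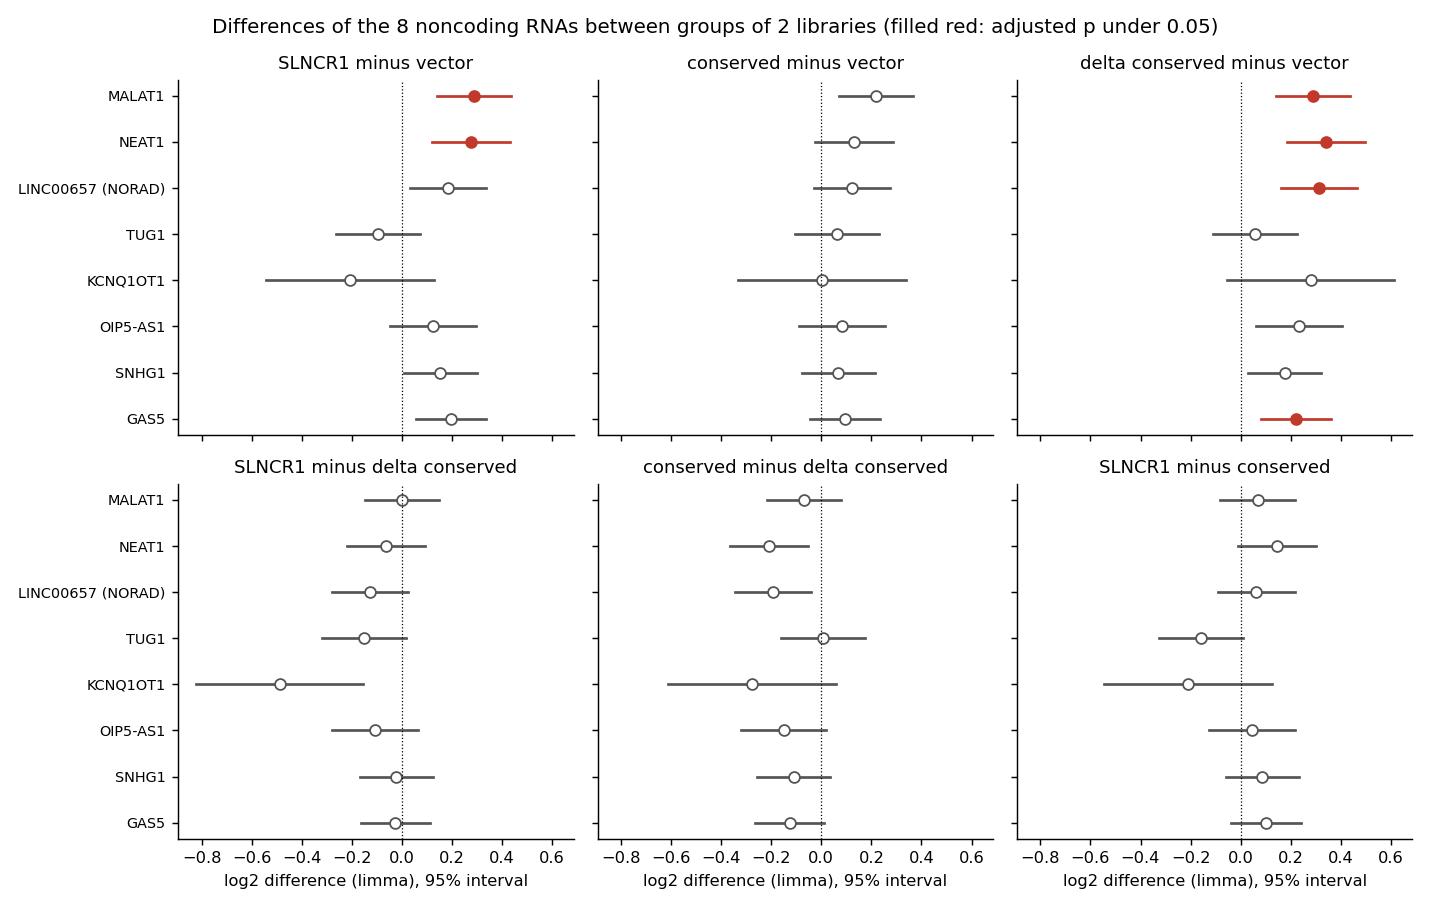
Log2 difference of each long noncoding RNA in the 6 comparisons, with its 95% interval; filled red points passed at an adjusted p under 0.05 (limma). MALAT1 and NEAT1 pass with SLNCR1 and with delta conserved, LINC00657 (NORAD) and GAS5 with delta conserved, and no point passes with conserved or between constructs.

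Across the 8 RNAs, 2 passed with SLNCR1, where 11.4% of all genes tested did. Both were higher (3.95% of all genes), and none was lower (7.4%). With delta conserved 4 of 8 passed, where 10.4% of all genes did. All 4 were higher (5.18% of all genes), and none was lower (5.24%). With conserved none of 8 passed, and 1 of 16067 genes did (0.00622%) by limma, with 876 genes and 1 member at an unadjusted p under 0.05. The median log2 difference of the 8 RNAs was 0.17 with SLNCR1, 0.09 with conserved and 0.26 with delta conserved, while the median of all genes was within 0.02 of 0. With all libraries and median-of-ratios scaling, all 8 values were above 0 with conserved and with delta conserved. The sign turned for KCNQ1OT1 with conserved under TMM scaling (-0.024), library totals (-0.040), a fit of the 2 groups alone (-0.013) and in the authors' deposited table (-0.014), and for TUG1 with delta conserved under library totals (-0.0023). With library depth as a term, SNHG1 turned with conserved (-0.00065) and delta conserved (-0.082). With 1 library left out, TUG1 turned with conserved and delta conserved, and KCNQ1OT1 and OIP5-AS1 with conserved. With SLNCR1 6 of 8 were above 0 in limma with all libraries, and TUG1 and KCNQ1OT1 were below. Groups did not overlap, with the construct higher, for 5 members with SLNCR1, 5 with conserved and 7 with delta conserved, where 27.2%, 25% and 27.7% of all genes did so. Without a variance trend in limma none of the 6 calls passed, and in a fit of SLNCR1 and vector alone MALAT1 (adjusted p = 0.0709) and NEAT1 (0.0788) did not pass. The 3 comparisons share the vector libraries, so their values are not independent of each other. By the authors' deposited adjusted p, MALAT1 and NORAD passed with delta conserved, where 2.26% of 34744 genes with a p-value did, 1.11% as higher and 1.14% as lower. In the authors' deposited table for SLNCR1 0.882% of genes passed, 0.0388% as higher and 0.844% as lower, and no member did. For conserved it was 0.0175%, all of them higher, and again no member.

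These calls fell where calls were frequent. The 318 genes with a mean of at least 3000 normalized counts, which include MALAT1, NEAT1 and NORAD, had a median log2 of 0.14 with SLNCR1, 0.09 with conserved and 0.19 with delta conserved, and 21.7%, 0% and 39.3% of them passed as higher. Among the 3095 genes between 1000 and 3000, which include TUG1, OIP5-AS1, SNHG1 and GAS5, 10.9% passed as higher with SLNCR1 and 15.4% with delta conserved. Of the 3 members in the upper band 2 passed with SLNCR1 and 3 with delta conserved. Of the 4 in the band below, none passed with SLNCR1 and GAS5 did with delta conserved. The part of expression level in the calls was not tested.

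**Figure D3:**
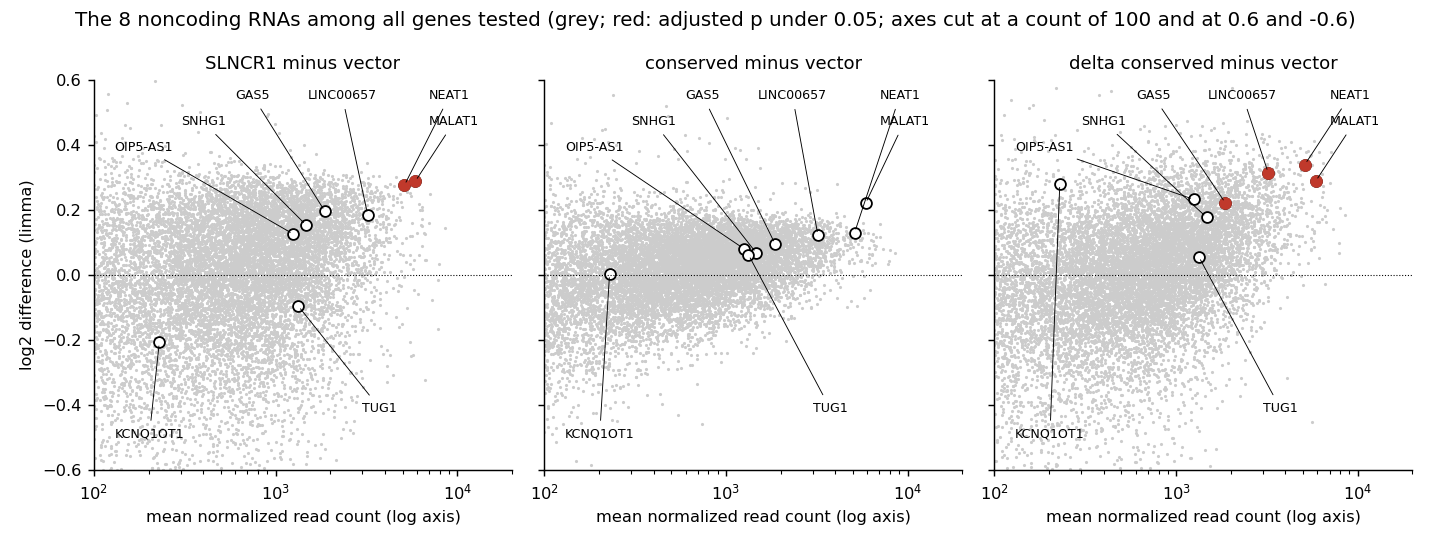
Log2 difference from vector (limma) against the mean normalized read count (log axis) for all genes tested with a mean of at least 100 (grey) and the 8 long noncoding RNAs (circles, red where the adjusted p is under 0.05). In the SLNCR1 and delta conserved panels the grey cloud bends upward at high counts, where MALAT1, NEAT1 and LINC00657 lie. With conserved the median of all genes rose as well, from 0.013 at counts of 100 to 1000 to 0.09 at 3000 or more.

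Read depth ran along with the groups, from vector as the deepest to delta conserved as the shallowest. Within groups, GAS5 and SNHG1 were higher in the shallower library in 4 of 4 groups, NEAT1 and NORAD in 3 of 4, MALAT1 in 2, KCNQ1OT1 and OIP5-AS1 in 1, and TUG1 in 0. With log2 library depth as a term in the fit, added after seeing the data, no member passed in any comparison. The log2 values under that term stayed at 0.32 for MALAT1 with SLNCR1 and 0.34 with delta conserved, and were 0.14 for NEAT1 in both. They were 0.18 for NORAD and 0.03 for GAS5 with delta conserved, with limma adjusted p-values of 0.545 to 0.997 for these 6 differences.

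The members also differ in annotated exon length, though their values did not follow it in order. The SLNCR1 pair of libraries differed most, with library b at a log2 of -0.72 against library a for KCNQ1OT1, whose annotated exon spans 91.7 kb, at -0.25 for TUG1 and at -0.10 to -0.11 for MALAT1, NORAD and OIP5-AS1. For GAS5 and SNHG1, the shortest, library b was higher by 0.09. Over all genes of 12 to 16 kb the SLNCR1 median was -0.21, against -0.03 in vector, -0.0063 in conserved and 0.02 in delta conserved. NEAT1, at 22.8 kb of annotated exon, was at -0.05. Its longest short transcript has 3524 bases, against 1698 in the longest GAS5 transcript and 2768 in that of SNHG1. Which form the NEAT1 reads came from was not tested. The part of length in the SLNCR1 values was not tested.

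**Figure D4:**
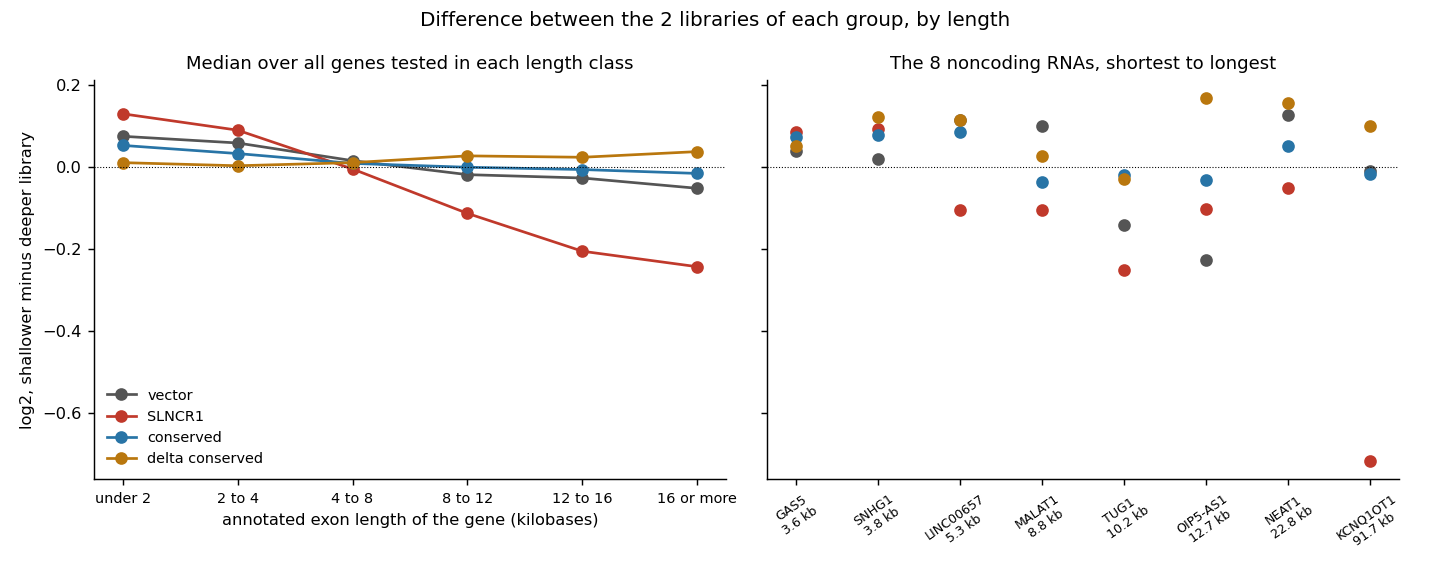
Log2 difference between the shallower and the deeper library of each group, as the median of all genes in 6 classes of exon length (left) and for each long noncoding RNA ordered by exon length (right). The SLNCR1 pair falls with length from 0.13 to -0.24, and KCNQ1OT1 lies at -0.72 in it.

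In the fit of all 4 groups, none of the 8 RNAs passed in a direct comparison of 2 constructs. Between SLNCR1 and delta conserved, 0 of 16067 genes passed by limma (0%), with 1284 genes at an unadjusted p under 0.05. MALAT1 differed by -0.00088 there, with a 95% interval from -0.15 to 0.15, and NEAT1 by -0.06 (-0.22 to 0.09). The intervals for GAS5 (-0.16 to 0.11) and SNHG1 (-0.17 to 0.12) were of like width, so differences up to these bounds were not excluded for these 4 RNAs. The sign for MALAT1 turned under TMM scaling (0.02) and those of MALAT1, SNHG1 and GAS5 under library totals (0.028, 0.0053 and 0.0031). NORAD was at -0.13 (-0.28 to 0.02), and both its SLNCR1 libraries were below both delta conserved libraries. KCNQ1OT1 had the largest value, -0.49 (-0.82 to -0.15), with an unadjusted p of 0.0067 and an adjusted p of 0.511, and without SLNCR1 library a it was -0.84 and passed (adjusted p = 1.7e-05).

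Between conserved and delta conserved, 6.9% of genes passed, 5.78% as higher and 1.12% as lower with conserved, and no member was among them. Both conserved libraries were below both delta conserved libraries for 7 of the 8 RNAs, all but TUG1, where 28.9% of all genes showed that arrangement. NEAT1 was at -0.21 (95% interval -0.37 to -0.05, adjusted p = 0.106), NORAD at -0.19 (-0.34 to -0.04, adjusted p = 0.13) and KCNQ1OT1 at -0.28 (-0.61 to 0.06, adjusted p = 0.333). NEAT1 passed when the libraries were scaled to their totals (limma, adjusted p = 0.0312). NEAT1, NORAD, OIP5-AS1 and KCNQ1OT1 passed when the fit held only these 2 groups (adjusted p = 0.00295 to 0.0405).

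Between SLNCR1 and conserved, 2.05% of genes passed as higher and 9.44% as lower with SLNCR1, and again no member did. NEAT1 was 0.14 higher (-0.01 to 0.30, adjusted p = 0.218) and GAS5 0.10 higher (-0.04 to 0.24, adjusted p = 0.34), and neither overlapped between the groups. TUG1 was at -0.16 (-0.33 to 0.01, adjusted p = 0.214) and KCNQ1OT1 at -0.21 (-0.54 to 0.12, adjusted p = 0.414). Without SLNCR1 library a, TUG1 and KCNQ1OT1 passed as lower (limma, adjusted p = 0.00655 and 0.000967).

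The mRNAs of proteins that share nuclear bodies with MALAT1 and NEAT1 were counted in the same libraries. No protein was measured, so here and below a protein's name stands for the level of its mRNA. Of 12 paraspeckle proteins none passed with SLNCR1 or conserved, and 4 rose with delta conserved, where 15.4% of all genes between 1000 and 3000 normalized counts and 39.3% of those above did. The median log2 of all 12 was 0.15, 0.10 and 0.19 for SLNCR1, conserved and delta conserved. Those that rose included the RNA-binding proteins NONO (0.28, limma adjusted p = 0.0148), HNRNPK (0.31) and TARDBP (0.23). NONO went from 2317 and 2486 normalized counts in vector to 2833 and 3004 with delta conserved. Of 13 nuclear speckle and splicing factors, SRSF2 rose with SLNCR1 (0.22) and SRSF1 (0.27), SRSF2 (0.23) and SRSF5 (0.23) with delta conserved, all SR proteins that guide splice site choice. With SLNCR1, 3.95% of all genes and 10.9% to 21.7% of those above 1000 normalized counts rose. With delta conserved it was 5.18% and 15.4% to 39.3%. In the direct comparison SON, a large speckle scaffold protein, was lower with SLNCR1 than with conserved (-0.34, limma adjusted p = 0.0231), with 3791 and 2891 normalized counts in SLNCR1 libraries a and b. Without SLNCR1 library b it was -0.15 and did not pass (adjusted p = 0.326), nor did it without either conserved library (adjusted p = 0.106 and 0.147). The medians of these 13 genes were 0.13, 0.12 and 0.11 for SLNCR1, conserved and delta conserved.

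Among the mRNAs of 8 proteins known to bind NORAD, those of RBMX, PRPF19 and KHDRBS1 rose with delta conserved. Their log2 differences were 0.22 to 0.25 (limma, adjusted p = 0.0267 to 0.0422). None of the 8 passed with SLNCR1 or conserved. With delta conserved, 5.18% of all genes and 15.4% to 39.3% of genes above 1000 normalized counts rose. PUM2, a Pumilio protein that binds elements of the kind shown above, did not pass in any comparison, with 2190 and 2098 normalized counts in vector and 2140 and 2327 with delta conserved. Of 4 tested genes of the 11p15 imprinted cluster around KCNQ1OT1 (CDKN1C, PHLDA2, SLC22A18 and H19), none passed in the 6 comparisons. CDKN1C, a cell cycle inhibitor in the domain that KCNQ1OT1 silences, had 459 and 551 normalized counts in vector, 483 and 551 with SLNCR1, 405 and 418 with conserved, and 569 and 428 with delta conserved.

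SNHG1 and GAS5 could be set beside 16 other tested host genes of small nucleolar RNAs. SNHG5 rose with SLNCR1 (0.26, limma adjusted p = 0.0361) and with delta conserved (0.29, adjusted p = 0.0234), and ZFAS1 rose with delta conserved (0.31, adjusted p = 0.0167). SNHG11 and SNHG15 fell with delta conserved, by 0.39 (adjusted p = 0.0151) and 0.26 (adjusted p = 0.0241). Of all genes 3.95% rose with SLNCR1, and 5.18% rose and 5.24% fell with delta conserved. Between 100 and 1000 normalized counts, where SNHG5, ZFAS1, SNHG11 and SNHG15 lie, 2.81% rose and 7.49% fell with delta conserved. SNHG15 went from 670 and 678 normalized counts in vector to 557 and 566 with delta conserved, and stood at 725 and 732 with conserved. The medians over the 16 genes were -0.0046, 0.09 and 0.07 for SLNCR1, conserved and delta conserved, where SNHG1 had 0.15, 0.07 and 0.18 and GAS5 0.20, 0.09 and 0.22.

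**Figure D5:**
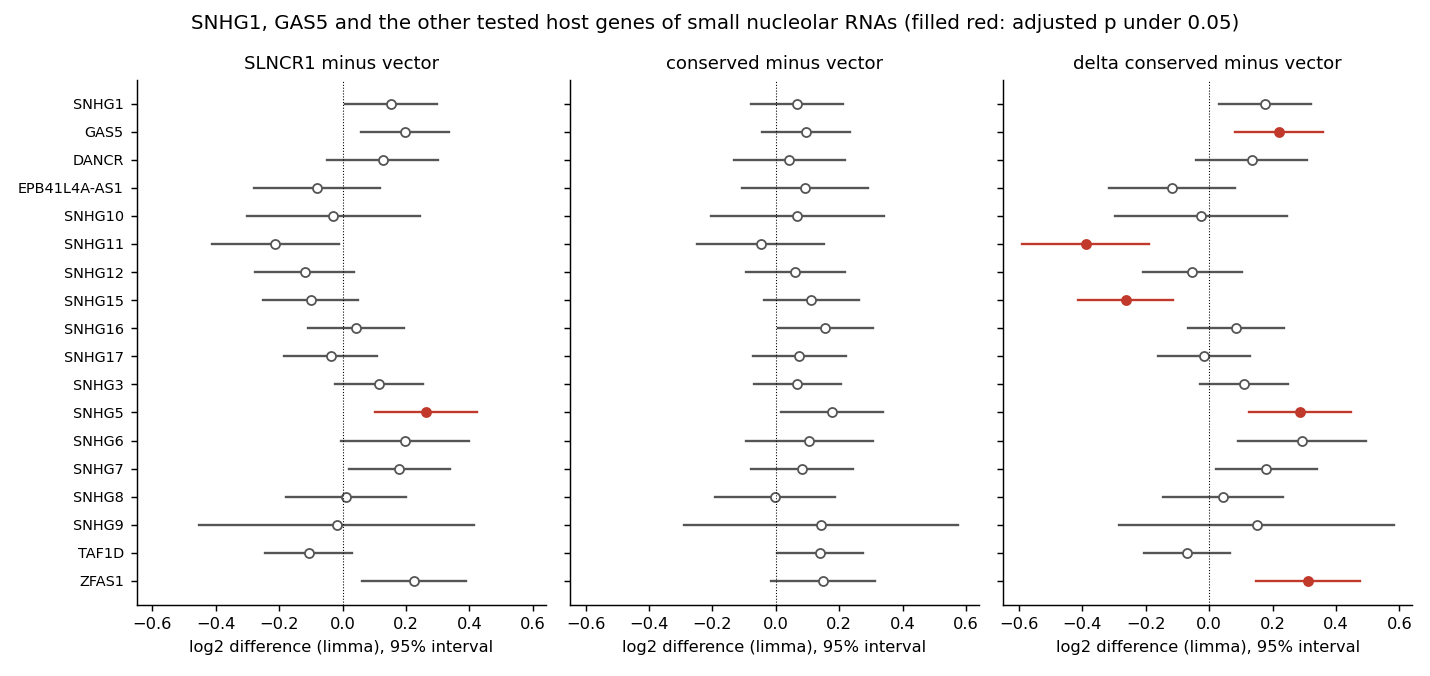
Log2 difference from vector with its 95% interval (limma) for SNHG1, GAS5 and the 16 other tested host genes of small nucleolar RNAs, filled red where the adjusted p is under 0.05. With delta conserved, GAS5, SNHG5 and ZFAS1 lie above 0 and SNHG11 and SNHG15 below.

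Translation genes with a pyrimidine run at the 5′ end form the class to which the GAS5 start is known to belong. Of 14 tested, 8 rose with SLNCR1, where 3.95% of all genes and 10.9% to 21.7% of genes above 1000 normalized counts did. With delta conserved 13 rose, where 5.18% of all genes and 15.4% to 39.3% of genes above 1000 did, and with conserved none passed. The median log2 over all 14 was 0.24, 0.11 and 0.32 for SLNCR1, conserved and delta conserved. The elongation factor EEF2 went from 4752 and 5224 normalized counts in vector to 5814 and 6268 with SLNCR1 and 6301 and 6958 with delta conserved, and PABPC1, the poly(A)-binding protein, from 3522 and 3825 to 4318 and 4600, and 4631 and 5117. In each group the shallower library was the higher for both genes. Of the mRNAs for 8 proteins of small nucleolar RNA particles, that of the methyltransferase FBL rose with SLNCR1 (0.27) and delta conserved (0.34). The NOP10 mRNA rose with delta conserved (0.32). The shares of all genes that rose were those given above. With SLNCR1, 7.4% of all genes passed as lower. Of 10 nonsense-mediated decay factors, the kinase SMG1 was the one that passed against vector, and fell by 0.49 with SLNCR1 (limma, adjusted p = 0.0134), where its libraries a and b were at 2491 and 1688 normalized counts. Without SLNCR1 library b it was -0.21 and did not pass (adjusted p = 0.114). Of the lists of proteins, host genes, translation genes and decay factors, none had a gene that passed with delta conserved when vector library a or delta conserved library b was left out, or with SLNCR1 when vector library a or SLNCR1 library b was left out (limma, chosen after seeing the data).

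Of 17 listed genes that neighbour 7 of the 8 RNAs (none was listed for KCNQ1OT1 here), 15 were tested and none passed against vector with all libraries in the fit. Their log2 differences ranged from -0.26 to 0.20 with SLNCR1, from -0.08 to 0.13 with conserved and from -0.22 to 0.22 with delta conserved. FRMD8 and LTBP3, near MALAT1 and NEAT1, had 0.16 and 0.20 with SLNCR1 and 0.09 and 0.22 with delta conserved. Near NORAD, EPB41L1 and AAR2 had 0.08 and 0.013 with SLNCR1, and near TUG1, MORC2 and SMTN had -0.02 and 0.0072. OIP5, NUSAP1 and CHP1, near OIP5-AS1, had -0.12, 0.13 and 0.13 with SLNCR1, while SLC3A2 and WDR74, near SNHG1, both had 0.08. ZBTB37 and CENPL, near GAS5, had -0.26 and -0.18.

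Over the 8 libraries, the genes with a mean of at least 100 normalized counts whose log2 level ran most like a member were sought among 11212 genes by Pearson's r, as a description of libraries that share depth and group. For MALAT1 they were RRM1 (0.98), SEH1L (0.96) and TMEM30A (0.95), and for NEAT1 MLEC, TM9SF3 and HMGN3 (all 0.99). For NORAD they were ATP2A2, THBS1 and HNRNPH1 (all 0.99), for TUG1 KIF14 (0.99), SMARCAD1 and LPHN2 (both 0.98), and for KCNQ1OT1 ATP2B4 (0.99), FBN1 and FOXN3 (both 0.98). OIP5-AS1 ran most like ATL3 (0.98), SPOCK1 (0.95) and FANCI (0.94), SNHG1 like AHSA1, MRPL51 (both 0.99) and COX7A2 (0.98), and GAS5 like SEC61G (0.997), PDIA3 and RPS13 (both 0.995). Among the members, the pairs with the highest r were SNHG1 with GAS5 (0.97), NEAT1 with NORAD (0.96), and NEAT1 with GAS5 (0.92). TUG1 and KCNQ1OT1 had 0.83 with each other and between -0.33 and 0.48 with the other 6.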

How the data were processed

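RNA from 8 libraries of A375 cells was poly(A)-selected and sequenced with a kit that does not mark strand, per the labels' protocols. The tools STAR, featureCounts and DESeq and the build hg19 are named, per the submitters' processing notes, without versions; the annotation release is not given. The authors' 3 deposited tables give, per gene, the mean signal of 2 libraries (reads divided by size factors), the fold change as a ratio of the group means, and p-values with adjusted p-values, per the file headers.

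Since each mean combines whole reads of 2 libraries, the reads of each library could be recovered from it. Recovery was unique for 100% of the genes with reads in 3 groups and for 99.981% with conserved, where 6 genes were left out. On simulated means, 100% of unique recoveries were correct. Reads were normalized by median-of-ratios size factors over 8 libraries. Differences were tested with limma 3.58.1 (R 4.3.3, variance trend, 4 groups, 4 residual degrees of freedom) on log2(normalized count + 1), a scale which understates changes of low genes, after removing genes whose mean was under 10. On simulated counts for 16067 genes it recovered 25.5% of genes changed 1.2-fold and 74.5% changed 1.5-fold for SLNCR1 against vector, 32.1% and 83.3% for conserved, and 30% and 81.2% for delta conserved. All groups were simulated with the same spread (dispersion 0.0013), without the wider spread of the SLNCR1 pair. These shares therefore do not rank the comparisons. Sequences, tables and figures were made in Python 3.11.15 (numpy 2.4.6, pandas 2.3.3, matplotlib 3.10.9).

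The 8 RNAs and the gene lists were chosen with earlier results of these data known. All 8 are named, along with up to 4 members of each list that passed in a comparison, the genomic neighbours whatever their values (a few genes of these lists are not reported here), and the 3 genes most like each RNA. COL3A1, LINC00511, KCNQ1, GAS5-AS1, PUM2 and CDKN1C were named as context after their values were seen. No gene coordinates are given, as the files use hg19 and the reference GRCh38. Exon lengths were found for 85.5% of the genes tested.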

Additional observations from a re-analysis of the deposited data

Results flagged for a closer look

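The 8 RNAs themselves were left out of this listing. Groups of 2 libraries are too small for a test of 1 library against the others. What follows are genes of the lists set beside the 8 RNAs. For each of them 2 construct groups differed in a direct limma test of the difference, adjusted over 16067 genes.

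SLNCR1 was below conserved in SON, a speckle scaffold (log2 difference -0.34, limma adjusted p = 0.0231), in the decay factors SMG1 (-0.57, adjusted p = 0.00312) and UPF2 (-0.45, adjusted p = 0.00537), and in TAF1D, a host of small nucleolar RNAs (-0.25, adjusted p = 0.0185). SLNCR1 library b, the one with lower levels of long genes, was the lower for SMG1 (1688 against 2491 normalized counts), SON (2891 against 3791) and UPF2 (599 against 781), but not for TAF1D (2010 against 1997). Without it the differences were -0.28 for SMG1 (limma, adjusted p = 0.0131), -0.15 for SON (adjusted p = 0.326), -0.26 for UPF2 (adjusted p = 0.0469) and -0.25 for TAF1D (adjusted p = 0.0309). SMG1 passed with any 1 library of the 2 groups left out. UPF2 was lost without conserved library b (adjusted p = 0.0528) and TAF1D without either conserved library (adjusted p = 0.109 and 0.188).

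Conserved was above delta conserved in the host genes SNHG15 (0.37, limma adjusted p = 0.00256) and SNHG11 (0.34, adjusted p = 0.0373). It was below delta conserved in the translation genes EEF2 (-0.28, adjusted p = 0.0395), PABPC1 (-0.26, adjusted p = 0.0469), EIF4B (-0.25, adjusted p = 0.0346) and TPT1 (-0.24, adjusted p = 0.0462). SNHG15 was lost without conserved library b (adjusted p = 0.0568), and the other 5 with any 1 library of the 2 groups left out (adjusted p = 0.0563 to 0.477).

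Among the genomic neighbours, CENPL, near GAS5, was higher with conserved than with delta conserved (0.35, limma adjusted p = 0.017) and lower with SLNCR1 than with conserved (-0.31, adjusted p = 0.025). LTBP3, near MALAT1 and NEAT1, was lower with conserved than with delta conserved (-0.26, adjusted p = 0.0366) and higher with SLNCR1 than with conserved (0.25, adjusted p = 0.0367). Neither passed against vector. With 1 library left out, the difference of SLNCR1 and conserved passed only without SLNCR1 library a for CENPL and LTBP3, and that of conserved and delta conserved in no case (limma, adjusted p = 0.112 to 0.357).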

How the results depend on the processing

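No paired analysis was possible because the deposited columns are means over 2 libraries and carry no replicate numbers. Over 648 recomputed log2 differences of the 8 RNAs, 559 kept direction and side of the threshold, 35 fell short of it, 14 newly passed and 40 changed sign. None of the 6 differences that passed changed sign in 84 recomputations, of which 35 fell short. The cause of these changes was not tested.

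Genes and members that passed changed as follows. For SLNCR1 against vector, 1824 genes and 2 members became 492 and 1 without the filter on low counts, 247 and 0 without a variance trend, 46 and 0 with library depth as a term (chosen after seeing the data), 834 and 0 with only the 2 groups, and 296 and 0 in the authors' deposited table. For conserved against vector, 1 gene became 0 without the filter, 0 without the trend, 0 with depth, 30 with only the 2 groups and 6 in the authors' deposited table. For delta conserved against vector, 1674 genes and 4 members became 651 and 3 without the filter, 207 and 0 without the trend, 13 and 0 with depth, 2366 and 5 with only the 2 groups, and 784 and 2 in the authors' deposited table. For SLNCR1 against delta conserved, 0 genes became 2 with only the 2 groups. For conserved against delta conserved, 1109 genes and 0 members became 1247 and 1 with library totals, 602 without the filter, 311 without the trend, 56 with depth, and 3193 and 4 with only the 2 groups. For SLNCR1 against conserved, 1846 genes became 885 without the filter, 412 without the trend, 312 with depth and 1192 with only the 2 groups. Of the genes that passed, the share that was higher was 34.8% for SLNCR1 and 49.7% for delta conserved, and 17% and 27% with TMM scaling.

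Leaving out 1 library at a time gave 317 (without vector library a) to 4329 genes (without SLNCR1 library a) and 0 to 6 members for SLNCR1 against vector, and 0 to 2 genes for conserved. For delta conserved it gave 271 (without vector library a) to 1270 genes and 0 to 3 members, with 325 genes without delta conserved library b and 742 without a. Between constructs it gave 0 to 1224 genes and 0 to 2 members (SLNCR1 and delta conserved, the highest without SLNCR1 library a), 426 to 582 genes (conserved and delta conserved), and 708 to 4014 genes and 0 to 2 members (SLNCR1 and conserved, the highest without SLNCR1 library a).

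Signs turned as follows with library depth as a term. With SLNCR1, TUG1 was at 0.12, KCNQ1OT1 at 0.15 and SNHG1 at -0.020, and SNHG1 was at -0.00065 with conserved and -0.082 with delta conserved. Between SLNCR1 and delta conserved, NEAT1 was at 0.0014, SNHG1 at 0.062 and GAS5 at 0.038. Between conserved and delta conserved, TUG1 was at -0.23, SNHG1 at 0.081 and GAS5 at 0.016, and between SLNCR1 and conserved, KCNQ1OT1 was at 0.0073 and SNHG1 at -0.019. KCNQ1OT1 with conserved was at -0.024 with TMM, -0.040 with library totals, -0.013 with only the 2 groups and -0.014 in the authors' deposited table, and TUG1 with delta conserved at -0.0023 with totals. Between SLNCR1 and delta conserved, MALAT1 was at 0.020 with TMM, 0.028 with totals and 0.0023 with only the 2 groups, SNHG1 at 0.0053 and GAS5 at 0.0031 with totals.

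Without 1 library, the ranges that crossed 0 were -0.22 to 0.026 for TUG1 and -0.56 to 0.15 for KCNQ1OT1 with SLNCR1, and -0.0047 to 0.14 for TUG1, -0.0012 to 0.012 for KCNQ1OT1 and -0.028 to 0.20 for OIP5-AS1 with conserved. TUG1 with delta conserved ranged from -0.012 to 0.13. Between SLNCR1 and delta conserved the ranges were -0.051 to 0.049 for MALAT1, -0.14 to 0.016 for NEAT1, -0.087 to 0.039 for SNHG1 and -0.071 to 0.019 for GAS5. TUG1 ranged from -0.012 to 0.018 between conserved and delta conserved, and KCNQ1OT1 from -0.57 to 0.15 and OIP5-AS1 from -0.0052 to 0.10 between SLNCR1 and conserved.

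With 2 libraries a group, changes near 1.2-fold were often missed on simulated counts, so an RNA that did not pass is not shown to be unchanged.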
